A study of Mus musculus with 2 samples.

Results

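The small RNAs described here are 5 array entries that reach their final size without the Microprocessor: mmu-miR-720, mmu-miR-1274a and mmu-miR-1937b, which are probable pieces of transfer RNA (tRNA), mmu-miR-320, whose hairpin is transcribed directly with a 5′ cap, and mmu-miR-1224, a mirtron. They are named below without the mouse prefix. They were selected on their signal lying above background, out of the 1023 mouse miRNAs on the array, so the fact that they were detected is not a result. Total RNA came from the quadriceps, in the thigh, and all mice were females of 15 to 16 weeks. Wild-type (WT) muscle and muscle of NF90-NF45 double transgenic (dbTg) mice, which carry transgenes for both proteins, gave 1 Cy3-labelled sample each, and both arrays lay on 1 slide and came from 1 scan. The promoter of the transgenes, and whether a sample was 1 animal or a pool, are not given in the sources used here. With 1 array per genotype no test was possible, and every difference below is one between 2 RNA samples. Errors are standard deviations (SD) or standard errors (SE) over the replicate spots of a probe on an array, which cover printing and hybridisation noise only.

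A canonical miRNA is released from its primary transcript by the Microprocessor, made of the nuclease Drosha and its RNA-binding partner DGCR8, and is then trimmed by Dicer. Mirtrons skip the first cut because splicing frees a short intron that folds into the hairpin, and the miR-320 hairpin skips it because transcription itself sets both of its ends. Fragments of tRNA come from cleavage of tRNAs and were entered as miRNAs in older releases of miRBase. NF90, a double-stranded RNA-binding protein, and its partner NF45 are known to occupy primary miRNA transcripts and hinder the Microprocessor.

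The probes of the tRNA-like entries are shown because they share an ending. Each entry had 2 probes, the longer of them 1 base longer. The stretch of RNA that pairs with the longer probe, read as the probe's reverse complement, is written 5′ to 3′ with a final CCA in capitals where there is one.
miR-720: cuggggccuCCA
miR-1274a: cuguucaggcgCCA
miR-1937b: ggacgagcccCCA
miR-320: guugagagggcga
miR-1224: gggagguggag
All 3 tRNA-like entries ended in CCA, the letters that mature tRNAs carry at their 3′ end, and the other members did not. On the whole array 18 of 1023 mouse miRNAs (1.76%) had a probe that reads a target ending in CCA. Among the mouse miRNAs detected on both arrays by the rule given below, 7 of 175 (4%) did, these 3 included. Because the 3 entries were chosen as probable pieces of tRNA, their shared ending is not independent of that choice. In the human literature miR-720 is taken to be a piece of a threonine tRNA and miR-1274a of a lysine tRNA.

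The hairpin of miR-1224 shows the mirtron layout. RefSeq places it at chr16:20604452-20604536 on the plus strand of GRCm38.p6, inside the gene Vwa5b2, and the capitals mark its first and last pair of bases, GU and AG, which are the splice signals at the ends of an intron. The second line is the mature strand read by the probes, miR-1224-5p, with its seed (bases 2 to 8) in capitals.
mir-1224 hairpin: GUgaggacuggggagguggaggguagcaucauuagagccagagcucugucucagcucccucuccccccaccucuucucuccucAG
miR-1224-5p: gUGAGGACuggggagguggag
A GU start with an AG end was present in 30 of the 1005 mouse hairpins in the RefSeq table (2.99%), and in 4 of the 5 mirtron hairpins looked up there, those of miR-1224, miR-877, miR-1981 and miR-1982. The hairpin of miR-702 did not have it. A mirtron is by definition a spliced intron, so the count among mirtron hairpins is not independent of that naming. Of the 5 members, miR-1224 had its mature sequence matched in RefSeq.

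In mm9, the build of the files, the longer probe of miR-720 was placed at chr3:88920583-88920593, that of miR-1274a at chrX:64206369-64206381, that of miR-320 at chr14:70843374-70843385 and that of miR-1224 at chr16:20604536-20604545. These spans are as the files give them and are 1 base shorter than the probe. The probes of miR-1937b were placed at 6 sites, on chromosomes 1, 3, 12, 16 and 17, with 2 of the sites on chromosome 12. They were also listed for miR-1937a, so that entry and miR-1937b were a single reading. In RefSeq the gene nearest to Mir320 is Polr3d, a subunit of RNA polymerase III.

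The arrays held 43200 miRNA spots each, of which 14.9% (WT) and 17.7% (dbTg) were well above background. A probe was called detected when at least 0.5 of its used spots were well above background by the flag of the extraction software. By that rule 175 mouse miRNAs were detected on both arrays. Signals are processed spot intensities in arbitrary units. To put the arrays on 1 scale, signals were divided by the 75th percentile over the 314 mouse probes that both arrays detected, which was 959 for WT and 1304 for dbTg. The labelled tissue was borne out by its markers, since the muscle miRNAs miR-1, miR-133a, miR-133b and miR-206 were detected by all their probes on both arrays.

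The tRNA-like members were lower in dbTg muscle on this scale, although miR-1937b turned positive under quantile normalization (0.18) and with the summed signal (0.02), and the ratios of miR-320 and miR-1224 were slightly above 0 with a sign that depended on the scaling. The log2 ratio, dbTg minus WT, was -0.65 for miR-720, -0.60 for miR-1274a and -0.45 for miR-1937b, against 0.14 for miR-1224 and 0.18 for miR-320. None of the 5 was at least 2-fold lower, where 9.14% of the 175 miRNAs were, and none was at least 2-fold higher, where 12.0% were. These background shares came from 16 and 21 miRNAs, and they depended on the scaling, with 8 lower and 49 higher without any scaling and 39 lower and 9 higher with scaling on positive control probes. The median over the 5 was -0.45, beside 0.03 over all 175. In bulk RNA a lower share of the cells that make an RNA and less of it per cell cannot be told apart.

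miR-720 had the lowest ratio of the 5. Its 11-base probe had a mean signal of 9621 ± 298 (SD over 20 spots) for WT and 8317 ± 275 (20 spots) for dbTg. Its 12-base probe had 45085 ± 1952 (20 spots) and 39270 ± 1212 (19 spots). Both probes were dimmer on the dbTg array before any scaling, at 0.864 and 0.871 of the WT signal. After scaling the probes gave log2 ratios of -0.65 and -0.64, and the entry as a whole was 1.57-fold lower (spot SE of the log2 ratio 0.011). The spots of the arrays did not overlap for either probe, before or after scaling. Of the 175 miRNAs, 37 had a lower ratio than miR-720.

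miR-1274a followed closely. Its 13-base probe read 1901 ± 54.6 (19 spots) in WT and 1716 ± 68.1 (19 spots) in dbTg, and its 14-base probe read 7248 ± 328 (20 spots) and 6467 ± 161 (18 spots). The dbTg array was the dimmer one for both probes, at 0.903 and 0.892 of WT before scaling. The scaled log2 ratios were -0.59 and -0.61, or 1.52-fold lower over both (spot SE 0.012), again with no overlap of scaled spots. Before scaling, spots of the 13-base probe did overlap.

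miR-1937b differed from the other tRNA-like members before scaling, since its signal was almost equal on the arrays. The 12-base probe read 75915 ± 1754 (19 spots) in WT and 74201 ± 2035 (20 spots) in dbTg, and the 13-base probe read 151763 ± 3307 (20 spots) and 153514 ± 4189 (20 spots). The unscaled log2 ratios were -0.03 and 0.02, so the probes did not even share a sign, and the spot ranges overlapped. Divided by the 75th percentile, which was higher in dbTg, the entry was 1.37-fold lower, with scaled log2 ratios of -0.48 and -0.43 (spot SE over both 0.0081). No spot of any of the 5 members was saturated.

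**Figure D1:**
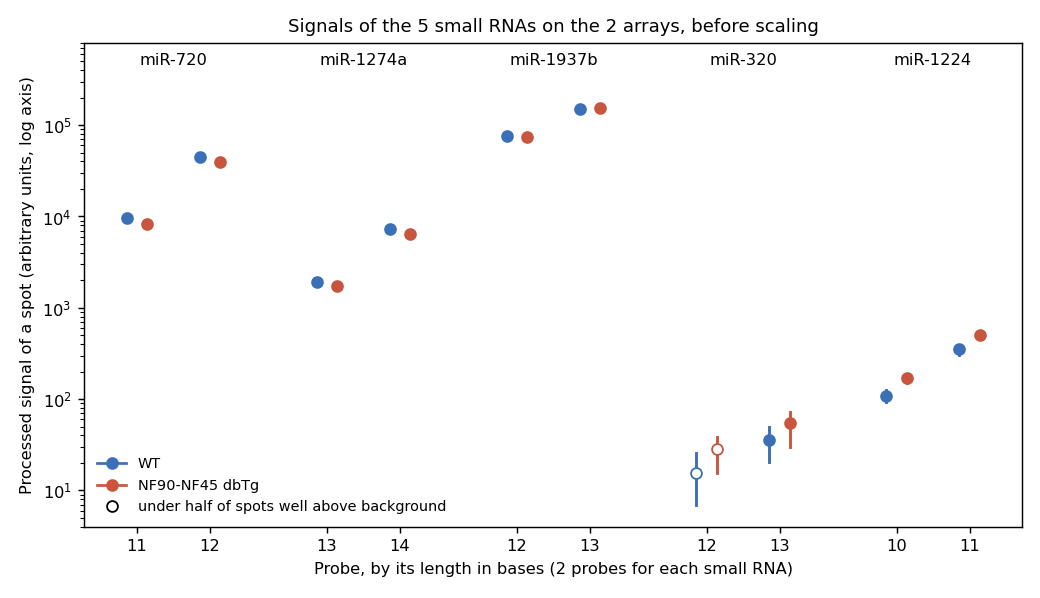
Processed signal of the probes of the 5 small RNAs before scaling (log axis, arbitrary units), by probe length in bases; points are means over the used spots of an array, bars run from the lowest to the highest spot (often shorter than the point), and open points mark probes with less than 0.5 of their spots well above background. Both probes of miR-720 and miR-1274a were dimmer on the dbTg array, those of miR-1937b were nearly equal, and those of miR-320 and miR-1224 were brighter on it.

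The mirtron product miR-1224 was brighter on the dbTg array before scaling and little different after it. Its 10-base probe read 109 ± 9.88 (18 spots) in WT and 171 ± 13.3 (20 spots) in dbTg, and its 11-base probe read 351 ± 22.9 (20 spots) and 502 ± 16.3 (19 spots). All used spots of both probes were well above background, and before scaling no WT spot was as bright as a dbTg spot of the same probe. The 10-base probe lies within 1 mismatch of part of the probes of miR-1940, which was not among the miRNAs detected on both arrays. Cross-hybridisation with miR-1940 was not tested. After scaling the probes gave log2 ratios of 0.21 and 0.07, or 1.10-fold higher over both (spot SE 0.023), and the scaled spots of the arrays overlapped for each probe. The ratio changed sign when the percentile was taken over all mouse probes (-0.03) and when positive controls set the scale (-0.23), and also with normexp background correction (-0.0074), with total gene signals (-0.16) and in the authors' processed values (-0.09).

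miR-320, studied in insulin resistance and glycolysis, was the dimmest member and lay just inside the limit of detection. Its 12-base probe read 15.7 ± 6.16 (19 spots) in WT and 28.1 ± 6.04 (20 spots) in dbTg, and 0 and 4 of those spots were well above background, so this probe did not enter the ratio. Its 13-base probe read 35.9 ± 7.20 (20 spots) and 55.3 ± 11.0 (20 spots), with 13 of 20 and 19 of 20 spots well above background. From that probe alone the log2 ratio was 0.18 (spot SE 0.091), or 1.13-fold higher, and the scaled spots overlapped. Just outside the limit lay miR-484, the other capped hairpin looked up here. The 16-base probe of miR-484 read 20.7 ± 8.14 in WT and 30.5 ± 7.86 in dbTg, with 5% and 45% of spots well above background. The ratio of miR-320 was -0.19 with scaling on positive control probes, -0.22 with normexp correction and -0.01 with total gene signals. It was 0.62 without scaling and 0.65 with the summed signal. In the authors' processed values it was 0.57, and in those values centred on their median 0.72. Both of these rest on the authors' WT value for miR-320, which departs from its total gene signal as described under the processing.

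Differences between the ratios of members cannot change when an array is divided by 1 factor, so they do not rest on the choice of such a scaling. Of the 10 pairs of members, the widest gap was between miR-320 and miR-720, at 0.83 on the log2 scale (spot SE 0.092). miR-1224 lay 0.79 above miR-720 (spot SE 0.026), 0.74 above miR-1274a (spot SE 0.026) and 0.59 above miR-1937b (spot SE 0.024), or 1.73-fold, 1.67-fold and 1.51-fold. Within the tRNA-like members, miR-1937b lay 0.20 above miR-720 (spot SE 0.014) and miR-1274a lay 0.05 above it (spot SE 0.016). miR-320 and miR-1224 were 0.04 apart (spot SE 0.094), which is less than the spot error. These errors hold no spread between animals, so whether the gaps exceed it was not tested.

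The gap between the lower of miR-320 and miR-1224 and the highest of the tRNA-like members was 0.59 under the main setting. Over 19 alternatives, in 1 of which miR-320 had no value, it ran from -0.15 to 0.60. It fell to 0.20 with normexp correction, and the sign turned under quantile normalization, where miR-1937b came to 0.18 and miR-1224 to 0.03. All 3 tRNA-like members were below the median of all miRNAs in 18 of the 19 alternatives, the exception being miR-1937b under quantile normalization. Scaling moved that median from 0.03 to as low as -0.34 with positive control probes and as high as 0.50 with the summed signal, an alternative chosen after seeing the data. miR-720 and miR-1274a stayed below 0 under all 19 alternatives, while miR-1937b was at 0.02 with the summed signal.

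**Figure D2:**
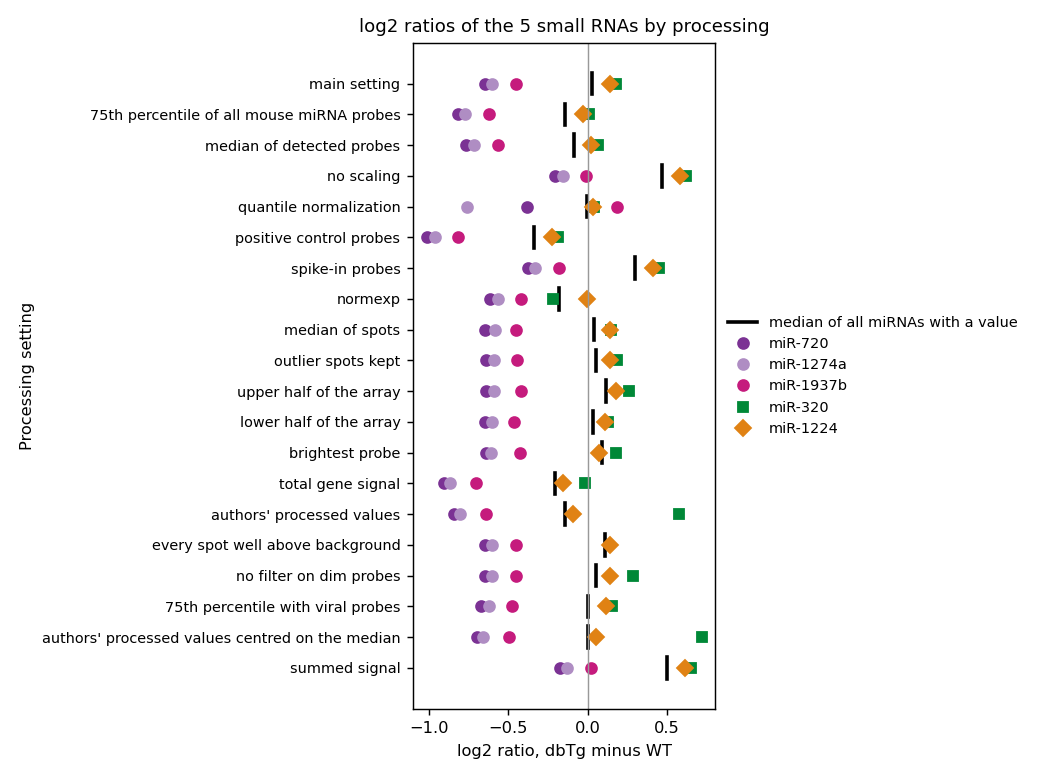
log2 ratio (dbTg minus WT, horizontal axis) of the 5 small RNAs under the main setting and each alternative (rows); the black mark is the median of all mouse miRNAs with a value under that setting. miR-720 and miR-1274a lie left of the black mark in every row, while miR-1937b lies right of it under quantile normalization, miR-320 left of it with normexp correction and miR-1224 left of it with the brightest probe.

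As a share of the summed fluorescence of all mouse miRNA probes, the tRNA-like entries on the array held 26.4% in WT and 26.2% in dbTg. miR-1937b made up 20.3% and 20.7% of the sum, miR-720 4.89% and 4.33%, and miR-1274a 0.817% and 0.745%. miR-1224 had 0.0411% and 0.0613%, and miR-320 had 0.0046% and 0.0076%. These are shares of light and not of molecules, because probes differ in how well they bind. The same sum also held the muscle markers, whose summed probe signal before scaling was 555021 in WT and 434095 in dbTg. A share therefore rests on what the abundant miRNAs did as well.

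Other small RNAs that bypass the Microprocessor were taken from lists chosen with earlier results of these data known. Of 6 tRNA-like names, 5 were on the array under their own name and 4 were detected on both arrays, all with log2 ratios below 0, from -0.65 to -0.45. The entry besides the members, miR-1937c, had a log2 ratio of -0.57 (spot SE 0.013), with mean signals of 1211 and 3040 for its probes in WT and 1147 and 2708 in dbTg. Its probes differ from those of miR-1937b by the substitution G10T, counted from the 5′ end of the probe with the base of miR-1937b first, so cross-hybridisation cannot be told apart from its own signal. miR-1983, which overlaps an isoleucine tRNA gene in RefSeq, was detected on neither array.

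Among 10 mirtron names, 9 were on the array and miR-1224 was the only one detected on both arrays. The other arm of its hairpin, miR-1224*, was detected on neither array, nor were miR-877, miR-877*, miR-702, miR-1981, miR-1981*, miR-1982* and miR-1982.2. Of the capped hairpins, miR-320 was detected and miR-320* and miR-484 were not. Of 4 names listed as pieces of small nucleolar RNAs, which guide the chemical modification of other RNAs, both arms of miR-1839 were detected, with log2 ratios of 0.22 for miR-1839-5p (spot SE 0.063) and 0.54 for miR-1839-3p (spot SE 0.095), and miR-664 and miR-664* were not. miR-1839-3p rested on 1 of its 3 probes. In RefSeq the gene of miR-664 overlaps Snora36b, such a small nucleolar RNA, while the gene of miR-1839 overlaps 2900076A07Rik and no small nucleolar RNA. In all, 8 of the 21 list names on the array were detected on both arrays, and 5 of these 8 are the members selected for lying above background. Their ratios were below 0 for 4 and above 0 for 4, beside 85 and 90 of all 175 miRNAs. None of the 8 was at least 2-fold apart in either direction, where 21.1% of the 175 were.

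**Figure D3:**
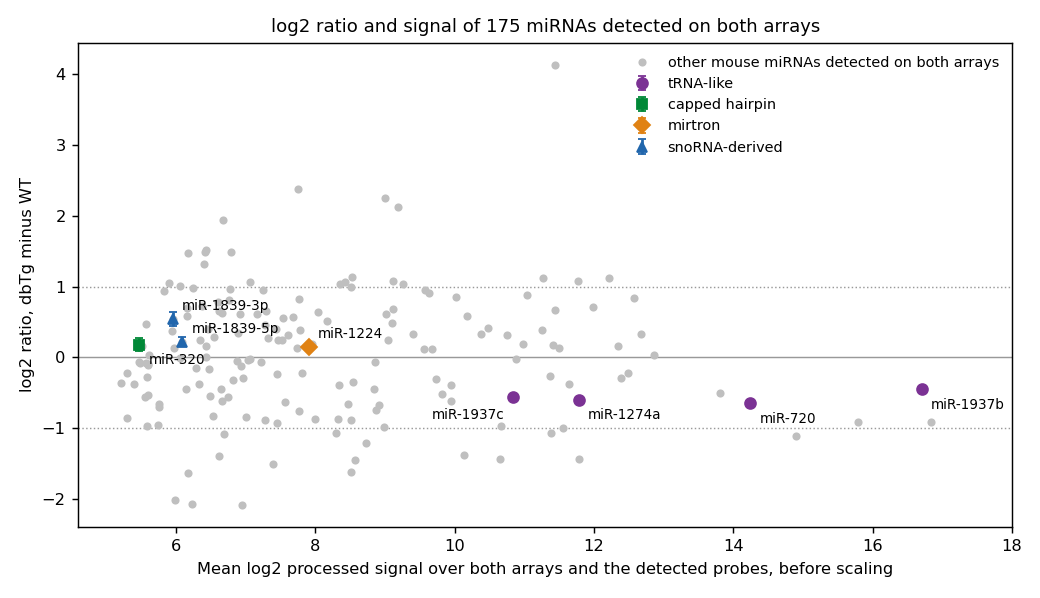
log2 ratio (dbTg minus WT, vertical axis) against mean log2 signal (horizontal axis) of the 175 miRNAs detected on both arrays; coloured points are the listed small RNAs made without the Microprocessor, with bars for spot SE, and dotted lines mark 2-fold. The 4 tRNA-like entries lie between -0.65 and -0.45 on the bright side, and the other 4 lie between 0.14 and 0.54 at lower signals than these.

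The tRNA-like members were among the brightest entries and miR-320 among the dimmest, so their ratios were set beside the signal. Over the 175 miRNAs the ratio and the mean log2 signal had a Pearson's r of -0.03 and a Spearman's rho of -0.0027, across miRNAs that share the same 2 arrays. The median ratio was -0.04, 0.11, 0.24 and -0.13 in 4 groups of nearly equal size from the dimmest to the brightest, and all 4 tRNA-like entries were in the brightest group, whose ratios ran from -1.45 to 4.14. By signal, miR-720 and miR-1937b lay among miR-1, miR-133b, miR-133a and miR-22, the other brightest miRNAs. These too had negative ratios, at -0.91, -0.92, -1.12 and -0.51. Near the signal of miR-1274a both signs occurred, with miR-29c at -1.44 and miR-24 at 1.08. Whether brightness has a part in the low ratios was not tested. The members kept the signs of their ratios in both parts of the array. With only the upper rows of spots they were -0.64, -0.59, -0.42, 0.26 and 0.18 for miR-720, miR-1274a, miR-1937b, miR-320 and miR-1224, and with only the lower rows -0.65, -0.60, -0.47, 0.13 and 0.11.

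The miRNA with the ratio nearest to that of each member, over these 2 arrays, was miR-149 for miR-720 (-0.64), miR-143 for miR-1274a (-0.62), miR-139-5p for miR-1937b (-0.45), let-7i for miR-320 (0.17) and miR-301a for miR-1224 (0.15). Such neighbours are common, since 13 to 18 other miRNAs lay within 0.1 of each member.

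Markers of other cells moved between the same arrays. The muscle markers miR-1, miR-133a and miR-133b had log2 ratios of -0.91, -1.12 and -0.92, and miR-206 had 4.14. All 3 fibroblast markers were above 0, from 0.87 to 1.07, with a summed signal before scaling of 3511 in WT and 8984 in dbTg. Of 6 blood-cell markers 5 were detected on both arrays, from -0.26 for miR-451 to 2.25 for miR-142-3p, and miR-142-5p was under the detection limit in WT. The summed signal of all 6 before scaling was 6441 in WT and 10813 in dbTg. The 3 vessel markers ranged from -0.62 for miR-145 to 0.16 for miR-126-3p. Their summed signal before scaling was 10924 in WT and 15054 in dbTg. The ratios were taken after division by 959 for WT and 1304 for dbTg. The sums were not divided, so they are not on the scale of the ratios. The part of these cells in the ratios of the 5 small RNAs was not tested.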

How the data were processed

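Quadriceps RNA carried the dye Cy3 on single-colour miRNA arrays, 1 for each genotype, per the labels' protocols. The authors deposited spot intensities from Agilent Feature Extraction 10.7.3.1, which per the file headers are background-subtracted and detrended but not scaled between arrays. The authors' processed table holds linear intensities with scale and centring unstated and column medians of 0.00135 and 0.00065, its lowest values. Above that value, 77.2% of its WT and 75.9% of its dbTg entries match, within 0.1%, the extraction software's total gene signal over a constant of that array, whose origin is unknown. For miR-320 in WT this did not hold. There the total gene signal over the authors' value was 1.44 times the constant, against 1 times in dbTg. That difference raises the ratio of miR-320 in the authors' values.

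Spots marked as outliers were left out (195 of 200 member spots were used on each array), spots of a probe were averaged, arrays were divided by the 75th percentile, and log2 ratios were averaged over detected probes. Numbers of arrays limit the precision. The size for counting was 2-fold. The 5 members were named in full, the other list names by detection, and 1 nearest miRNA for each member. Members and lists were chosen with earlier results of these data known. Python 3.11.15, pandas 2.3.3 and limma 3.58.1 were used, and the computation was tested on simulated data. Sequences are from the files and from RefSeq (GRCm38.p6). Alternatives are given in the closing section.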

Additional observations from a re-analysis of the deposited data

How the results depend on the processing

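No paired analysis was possible because each genotype has 1 array and no test was made. A member's ratio was compared with its main value by sign, by the 2-fold size and by a shift of 1.5-fold. miR-1274a kept sign and size under all 19 alternatives (-0.96 to -0.13), and miR-720 kept its sign but reached -1.01 with positive control probes, where 1 member counted as lower. At a 1.5-fold size 2 members did. miR-1937b turned to 0.18 under quantile normalization and 0.019 with the summed signal, and the median of the 5 to 0.034 and 0.019. miR-1224 turned to -0.032 with scaling on all mouse probes, -0.23 with positive control probes, -0.0074 with normexp, -0.16 with total gene signals and -0.092 in the authors' values. miR-320 turned to -0.19, -0.22 and -0.014 with positive control probes, normexp and total gene signals, and had no value when every spot had to be well above background. Members at least 2-fold higher were 0 throughout. Over all miRNAs, counts lower and higher (16 and 21) became 31 and 10 with scaling on all mouse probes, 26 and 13 on the median of detected probes, 8 and 49 without scaling, 39 and 9 on positive control probes, 32 and 10 with total gene signals, 31 and 11 in the authors' values, 88 and 121 without a filter, 42 and 47 at 1.5-fold, 5 and 5 at 3-fold, and 6 and 51 with the summed signal. Higher counts alone moved to 35 with spike-in probes and 7 with normexp. The summed signal, the percentile with viral probes and the centred authors' values were chosen after seeing the data. Signal over background limits miR-320, for which 1 of 2 probes was used, and its value ran up to 0.72 in the centred authors' values.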

Other observations

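Targets ending in CCA did not share a direction outside the tRNA-like entries. Of the 18 mouse miRNAs with such a probe, 7 were detected on both arrays, and 5 of them had log2 ratios below 0. Besides miR-720, miR-1274a, miR-1937b and miR-1937c these were miR-212-3p, an activity-regulated miRNA, at -0.39 (spot SE 0.027), the myeloid miRNA miR-223 at 1.13 (spot SE 0.016) and miR-3096-3p at 0.61 (spot SE 0.029). These entries were chosen by probe sequence after the data were seen, and no test was made.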
